A study of Homo sapiens with 4 samples.

Results

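Hub anchors were the stretches of the genome at which the most SMC1-bound loops met. Hubs were chosen by their number of loops: an anchor with the same chromosome, start and end in 10 or more rows of the authors' table of high-confidence loops, counting both ends of a loop, was a hub. Of the 17105 anchors in that table, 692 (4.05%) were hubs, and 8358 of its 22680 loops (36.9%) had a hub at either end. A hub lay at both ends of 1635 of these loops (19.6% of the hub loops). The rule used the pooled loop table, so the number of loops at a hub is given as a description, and so are width and partner distance, which were read from the same table. The contacts were measured by SMC1 HiChIP in A673, an established line from an Ewing sarcoma with the fusion EWS-FLI1, in 2 STAG2-null and 2 wild-type libraries. In HiChIP, neighbouring DNA ends in fixed nuclei are ligated, the joined fragments that a chosen protein holds are pulled down, and each pair read by sequencing is a paired-end tag (PET). The STAG2-null cells were grown from single cells after editing with Cas9. The labels do not say whether both null libraries came from 1 clone, whether the wild-type cells were cloned too, or whether the libraries of a genotype were separate cultures. The p-values below therefore speak of the spread among these 4 libraries alone, which may be technical. Clone and genotype cannot be told apart. Loop data hold no reading of the STAG2 protein or transcript, so the genotype rests on the labels.

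Cohesin is a ring-shaped complex that holds DNA, and SMC1 is one of the proteins of the ring. It carries either STAG1 or STAG2 as a further subunit, and STAG2 is often mutated in Ewing sarcoma. Cohesin draws chromatin into loops and is held up at sites bound by CTCF, so many loop anchors are CTCF sites. Anchors where many loops meet are often found around active promoters and enhancers, which carry the histone mark H3K27ac.

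STAG2-null 1 held 682724 PETs, of which hub loops took 63773, and STAG2-null 2 held 698002 with 65771. Wild-type 1 held 661881 PETs with 65067 at hub loops, and wild-type 2 held 765017 with 71917. The STAG2-null 2 library stood apart. Over the 692 hubs the SD of its log2 difference was 0.36 from either wild-type library and 0.26 from STAG2-null 1. STAG2-null 1 lay as close to the wild-type libraries, with an SD of 0.27 from each, as to the other null library, and the wild-type libraries differed from each other with an SD of 0.21. Counts of hubs past the threshold are therefore given below with and without single libraries.

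The deposited tables name genes at only some hubs. Names come from the authors' table of differential loops, whose anchors were picked for a change between genotypes. A gene could be placed only at an anchor marked there as a promoter. Most hubs are therefore unnamed, and so are most of the hubs called below. In all, 105 genes could be placed at 75 hubs. Promoters of 4 of them are shown because their hubs carry the results below. IER5L, an immediate-early response gene, and SMAD7, an inhibitor of TGF-beta signalling, lie at 2 of the hubs with the most loops. DAPK1, a calmodulin-regulated kinase linked to cell death, lies at the hub with the smallest adjusted p, and RXRA, the retinoid X receptor alpha, lies at a hub that fell. The sequences are RefSeq's for build GRCh38.p14 and run from 250 bases before to 50 bases after the annotated start, 5′ to 3′ on the gene's strand. The hub coordinates are hg19 and are not comparable with them. The windows are chr9:129178212-129178511 (minus strand) for IER5L, chr18:48950916-48951215 (minus strand) for SMAD7, chr9:87497617-87497916 (plus strand) for DAPK1 and chr9:134326205-134326504 (plus strand) for RXRA. Capitals mark a match to fixed letters from the core of the CTCF motif, searched on both strands: CCA, any pair of bases, AG, any pair of bases, GGC.
IER5L: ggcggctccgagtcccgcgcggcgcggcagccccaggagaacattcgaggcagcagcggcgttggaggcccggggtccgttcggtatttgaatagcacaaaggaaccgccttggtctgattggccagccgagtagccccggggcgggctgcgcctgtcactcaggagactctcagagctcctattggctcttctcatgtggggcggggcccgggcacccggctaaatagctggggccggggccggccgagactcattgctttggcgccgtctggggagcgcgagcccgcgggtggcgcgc
SMAD7: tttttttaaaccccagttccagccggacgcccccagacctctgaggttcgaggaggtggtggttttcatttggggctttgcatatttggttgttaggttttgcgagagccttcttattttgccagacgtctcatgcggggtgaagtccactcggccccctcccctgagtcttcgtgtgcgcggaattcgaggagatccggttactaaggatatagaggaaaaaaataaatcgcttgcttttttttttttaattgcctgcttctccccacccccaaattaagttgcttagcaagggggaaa
DAPK1: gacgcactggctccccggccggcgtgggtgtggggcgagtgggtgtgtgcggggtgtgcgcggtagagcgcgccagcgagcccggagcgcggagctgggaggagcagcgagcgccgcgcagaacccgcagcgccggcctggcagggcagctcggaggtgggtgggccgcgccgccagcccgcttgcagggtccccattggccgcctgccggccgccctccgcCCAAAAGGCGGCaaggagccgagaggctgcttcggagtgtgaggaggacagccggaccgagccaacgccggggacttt
RXRA: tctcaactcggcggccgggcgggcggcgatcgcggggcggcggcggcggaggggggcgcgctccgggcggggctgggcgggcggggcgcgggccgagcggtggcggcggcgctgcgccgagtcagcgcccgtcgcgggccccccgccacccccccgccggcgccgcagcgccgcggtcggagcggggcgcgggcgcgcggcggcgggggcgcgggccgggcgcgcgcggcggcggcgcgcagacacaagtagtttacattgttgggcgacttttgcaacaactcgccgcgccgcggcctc
The DAPK1 window held the letters once, starting at base 223 on the plus strand, and the other 3 windows did not hold them. They occurred in 679 of 27305 RefSeq promoters of the same length (2.49%) and in 2 of the 73 promoters of genes placed at hubs (2.74%). GGAAGGAA, the repeat unit to which EWS-FLI1 binds written out as a pair, was searched the same way and occurred in 978 of all promoters (3.58%) and in 1 of the 73. The 4 windows held 32, 13, 37 and 65 CG pairs, in the order printed. Over the 73 promoters at hubs the median was 27 CG pairs and a GC content of 67.3%, against 14 and 58.3% over all promoters. Promoters at anchors with fewer loops were not compared, so these values are not read as particular to hubs.

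Hubs were unevenly spread over the genome (coordinates of hubs are hg19 throughout). Chromosome 9 held 134 of them (19.4%), with 8.42% of all PETs, which is 56.7 hubs per 100000 PETs of the chromosome. Chromosome 11 held 111, chromosome 1 held 87, chromosome 17 held 77, chromosome 12 held 68, chromosome 7 held 58 and chromosome 20 held 41. These 7 chromosomes held 576 hubs (83.2%). Chromosome 7 had more PETs than chromosome 9 (9.85% against 8.42%) and 21.0 hubs per 100000 PETs. At the other end, chromosome 4 held 1 hub with 2.70% of the PETs, chromosomes 5 and 6 held 2 each, and chromosomes 10, 13 and X held none. The number of copies of each chromosome in these cells was not measured here, and its part in the hub numbers was not tested.

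**Figure D1:**
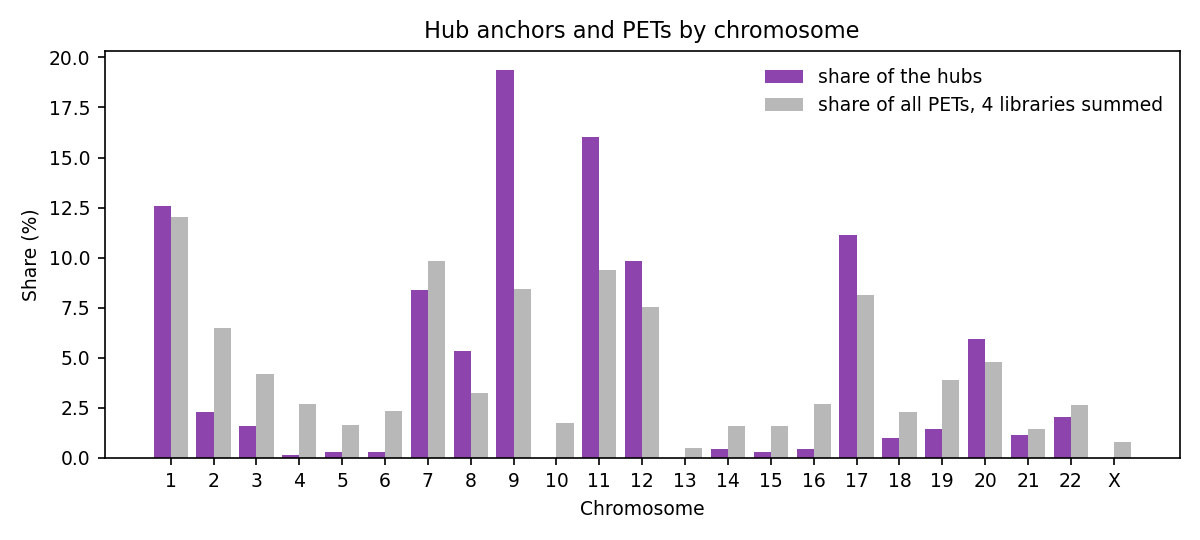
Share of the 692 hubs (purple) and of all PETs summed over the 4 libraries (grey) by chromosome, both in percent. Chromosome 9 holds 19.4% of the hubs with 8.42% of the PETs, while chromosome 4 holds 1 hub and chromosomes 10, 13 and X hold none.

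Within chromosomes the hubs lay close together. When hubs no more than 500 kb apart were joined, they formed 166 clusters, and 70 hubs (10.1%) stood alone. Clusters of 5 or more numbered 49 and held 501 hubs (72.4%). Of the 90 windows of 10 Mb that held a hub, the 10 with the most held 313 hubs (45.2%). The biggest cluster, chr9:130265061-135122393, held 60 hubs, among them those at IER5L, NTMT1, PRRX2, ASS1 and QRFP. It was followed on the same chromosome arm by chr9:138850922-140203151 with 27 hubs and chr9:136218116-138242758 with 25. In all, 112 hubs lay beyond 130 Mb of chromosome 9. The next clusters held 15 hubs each, on chromosome 11 (chr11:131556663-132030999) and on chromosome 8.

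Hubs were also joined to each other. A hub had a median of 4 hub partners (range 0 to 28), and 83 hubs had none. Loops between hubs linked them into 99 networks of 2 or more. The biggest network joined 47 hubs on chromosome 9, from 131386859 to 133818349, through 266 loops. The hub with the most hub partners, 28 of 45, was that at NTMT1, the gene of an N-terminal protein methyltransferase. A loop between hubs is counted at both of them, so hub values within a network share reads and are not independent.

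Hubs were broad anchors. Their median width was 11049 bp (quartiles 8239 and 15005, range 2415 to 50083), against 6586 bp for anchors with 5 to 9 loops, 4078 bp with 2 to 4 loops and 2791 bp with 1 loop. Of the hubs, 411 (59.4%) were at least 10 kb wide, against 612 (3.73%) of the anchors with fewer loops. Over the 692 hubs, width and number of loops correlated at Pearson r = 0.561 and Spearman rho = 0.427, and PETs and number of loops at rho = 0.768. All 3 measures come from the same loop table, and the part of width in the others was not tested. The widest hub, chr12:124968696-125018778, spanned 50083 bp and had 32 loops. The narrowest, chr1:16892096-16894510, spanned 2415 bp and had 15, of which 12 ran to higher coordinates.

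The number of loops ran from 10 to 49 with a median of 13. Hubs with 15 or more loops numbered 245, with 20 or more 87, and with 30 or more 15, of which 8 were on chromosome 9. The threshold did not fall in a gap. The 146 hubs with exactly 10 loops had a median width of 8963 bp and 287 PETs over the 4 libraries, and the 182 anchors with exactly 9 loops had 7822 bp and 252.5 PETs. Over all hubs the median was 414.5 PETs (range 171 to 2743), or 31.5 PETs per loop.

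Partners of hubs lay farther away than the ends of other loops. The median distance between midpoints was 60.3 kb for hub loops, 107 kb for loops with a hub at both ends and 15.04 kb for loops with no hub end. Hub loops shorter than 20 kb made up 19.6%, against 59.2% of loops with no hub end, and hub loops of 200 kb or more 15.8% against 6.03%. Distance rose with the number of loops below the threshold too. The median partner distance of an anchor was 10.9 kb at 1 loop, 21.4 kb at 2 to 4, 33.5 kb at 5 to 9 and 61.2 kb at hubs. It was 41.6 kb at exactly 9 loops and 47.6 kb at exactly 10, and the part of anchor width in these distances was not tested. The median partner distance of single hubs ranged from 20.4 kb to 557 kb, and 27 hubs (3.90%) had a median of at least 200 kb. A partner at 500 kb or more was found for 109 hubs (15.8%), and one at 1000 kb or more for 18. The shortest median belonged to chr11:45916947-45923999, whose 10 partners lay between 5.31 and 108 kb away.

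**Figure D2:**
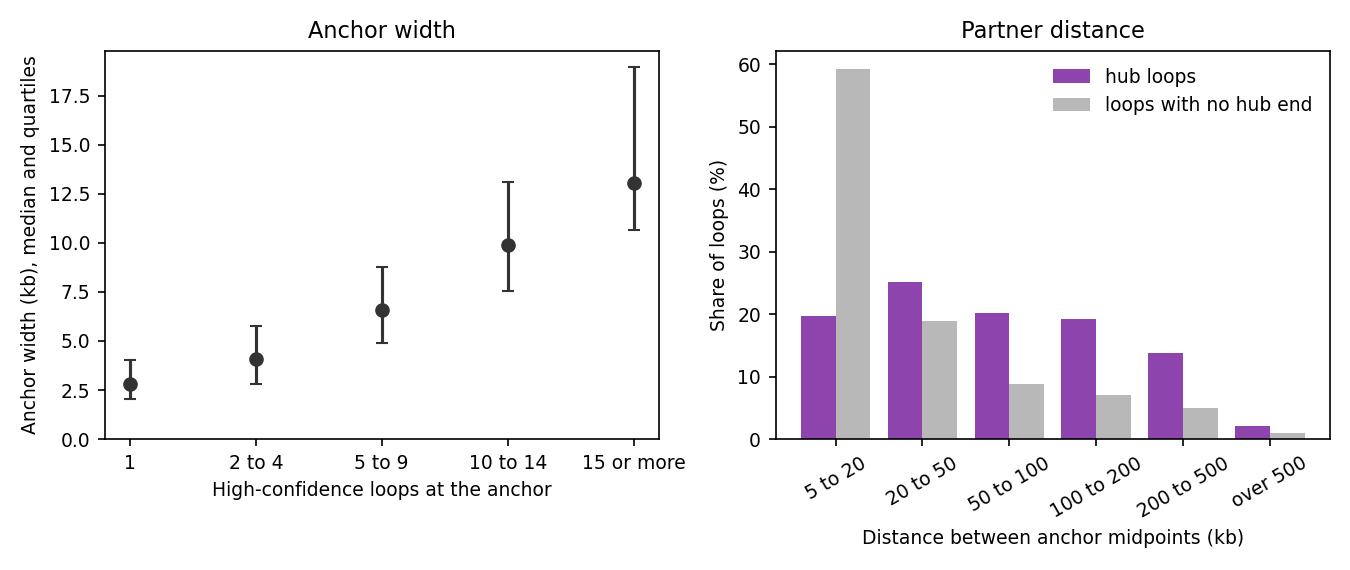
Left, anchor width in kb (median, with bars from the lower to the upper quartile) by number of high-confidence loops at the anchor. Right, share of hub loops and of loops with no hub end, in percent, by distance between anchor midpoints in kb. Median width rises from 2791 bp at 1 loop to 13037 bp at 15 or more, and 19.6% of hub loops but 59.2% of loops with no hub end are shorter than 20 kb.

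Most hubs had partners on both sides. The median share of partners on the fuller side was 64.3%, and 266 hubs (38.4%) had 60% or less on that side. The fuller side was the higher coordinate for 322 hubs and the lower for 317. Partners lay to at least 80% on 1 side in 122 hubs (17.6%) and wholly on 1 side in 7. Among those 7 was the hub at RAI1, chr17:17580905-17590360, with all 13 partners at higher coordinates and a CTCF flag in the authors' table. On chromosome 20, chr20:52194427-52200983 had all 12 partners at higher coordinates, with a median distance of 268 kb, and it also carried a CTCF flag.

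Flags for CTCF, FLI1 (the DNA-binding partner in the EWS-FLI1 fusion), H3K27ac and promoters come from the authors' deposited table and cover the 242 hubs that it holds. CTCF was flagged at 151 of them (62.4%), H3K27ac at 178 (73.6%), FLI1 at 57 (23.6%) and a promoter at 91 (37.6%). Among the 892 other anchors in the table the shares were 44.5%, 53.5%, 12.9% and 26.2%. Hubs are broader, and the part of width in these shares was not tested. CTCF and H3K27ac stood together at 114 hubs, CTCF without H3K27ac at 37, H3K27ac without CTCF at 64, and neither at 27. Of the hubs with CTCF, H3K27ac or both, those with both were the widest, with a median of 14078.5 bp and a median partner distance of 77.6 kb. Those with CTCF alone had 11292 bp and 59.6 kb, and those with H3K27ac alone 11789 bp and 51.3 kb.

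The 4 hubs with the most loops lay in 1 stretch of chromosome 9. The hub chr9:132073682-132119020 had 49 loops, 27 of them to other hubs, and flags for CTCF, FLI1 and H3K27ac. It held 594 and 514 PETs in the null libraries and 756 and 879 in the wild-type libraries. Scaled to 10000 PETs of the chromosome in each library (normalised PETs), these were 111 and 102 against 123 and 124, with both null libraries below both wild-type ones (106 ± 6.55 against 123 ± 0.652, SD, n = 2 each). The log2 difference, STAG2-null minus wild-type, was -0.21 ± 0.08 (SE) with an adjusted p of 0.221 by edgeR's quasi-likelihood test, adjusted by Benjamini-Hochberg over all tested anchors. Its most frequent partner was the hub chr9:132240582-132270109, 159 kb away, with 56 and 42 PETs in the null libraries and 80 and 85 in the wild-type libraries. Scaled per chromosome, that loop's log2 difference was -0.40 (adjusted p 0.523, same edgeR test).

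The hub at NTMT1 and C9orf50, chr9:132362222-132384988, had 45 loops and 103, 102, 107 and 107 normalised PETs in STAG2-null 1 and 2 and wild-type 1 and 2. Its log2 difference was -0.06 ± 0.08. The hub at IER5L, chr9:131928426-131949432, had 44 loops, of which 38 ran to higher coordinates. Its normalised PETs were 82.5, 73.7, 79.95 and 85.1 in the same order, so the groups overlapped. A loop of 435 kb between the IER5L and NTMT1 hubs had 42 and 42 PETs in the null libraries and 49 and 55 in the wild-type libraries. These PETs are not scaled, and with scaling per chromosome the loop's log2 difference was 0.04 (adjusted p 0.979, edgeR's quasi-likelihood test). The fourth, chr9:132240582-132270109, had 43 loops, and 92.6 and 99.0 normalised PETs in the null libraries against 114 and 105. None of the 4 passed the threshold.

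The hub at SMAD7, chr18:46439186-46480638, had 38 loops on a chromosome with 7 hubs, and only 1 of its partners was a hub. Its normalised PETs were 255 and 240 in the null libraries and 251 and 246 in the wild-type libraries, which overlapped, with a log2 difference of -0.01 ± 0.09. The hub chr9:140109879-140141513 also had 38 loops. It holds TUBB4B, a beta-tubulin gene, with FAM166A, RNF208, RNF224, SLC34A3 and C9orf169, and had 48.2 and 46.8 normalised PETs against 55.7 and 58.3. Both null values lay below both wild-type values, at a log2 difference of -0.26 ± 0.10 and an adjusted p of 0.257 by the same edgeR test. The last of these 8 hubs were chr17:7473526-7498588 with 33 loops and the widest hub, on chromosome 12, with 32, a number that another 2 hubs shared. Their log2 differences were 0.01 ± 0.11 and -0.16 ± 0.08, and neither passed the threshold.

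The genotype comparison summed the PETs of all high-confidence loops at an anchor and scaled each library to its PETs on that chromosome. Of the 692 hubs, 14 were higher and 7 were lower in the STAG2-null libraries at an adjusted p under 0.05, by edgeR's quasi-likelihood test, adjusted by Benjamini-Hochberg over all 12127 anchors tested, with adjusted p from 5.34e-05 to 0.0421. That is 2.02% and 1.01% of the hubs, where 0.355% and 0.099% of all tested anchors passed in these directions. In either direction 3.03% of the hubs passed, against 0.454% of all tested anchors, 1.08% of those with 5 to 9 loops and 0.297% of those with under 10. More PETs also gave hubs a smaller error, with a median standard error of 0.16 against 0.46 for anchors with under 10 loops, so the higher share called is not read as a larger effect. Of the hubs, 643 (92.9%) differed by less than 0.5 on the log2 scale, against 67.8% of all tested anchors, and the SD of the differences was 0.27 against 0.54. The smaller standard error at hubs bears on these sizes too, so they are not read as smaller effects. The median hub differed by 0.03 and the median anchor by 0.12, so hubs lay 0.09 below the anchors as a whole, and 384 hubs (55.5%) were above 0, against 60.7% of all tested anchors. This gap depended on which pairs were summed, at -0.018 with all anchor pairs and -0.022 with loops of at least 20 kb, and the hubs above 0 numbered from 227 with TMM factors to 486 with the window scaling described below. The libraries separated by genotype at 344 hubs (49.7%), against 40.8% of all tested anchors.

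These counts depend on the libraries and the scaling. A fit without 1 library leaves a single library in that genotype, which is assumed to vary like the others, so the spread then comes from the other genotype's pair alone. Without STAG2-null 1 there were 38 higher and 19 lower hubs, without STAG2-null 2 there were 1 and 3, and without either wild-type library there were 0 and 0 by the same edgeR test (unadjusted p under 0.05 at 66 and 36 hubs without wild-type 1 and at 43 and 57 without wild-type 2). DESeq2 called 0 and 0, with 28 and 20 hubs at an unadjusted p under 0.05, where edgeR had 94 and 67. With plain library totals 23 hubs were higher and 39 lower, and with TMM factors, which put the median of all anchors at 0.01 in place of 0.12, 10 and 75. Scaled to the sparse anchor pairs of a chromosome (pairs with at most 4 PETs in all), 10 were higher and 0 lower (40 lower at an unadjusted p under 0.05), and scaled to the sparse pairs of each 10 Mb window, 3 and 0 (14 lower unadjusted). Of the 14 higher and 7 lower hubs, 7 and 7 passed with plain totals, 4 and 7 with TMM factors, 10 and 0 with sparse pairs of the chromosome, and 3 and 0 with those of windows. Without STAG2-null 1, 13 and 4 of them passed, and without STAG2-null 2, 1 and 2.

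**Figure D3:**
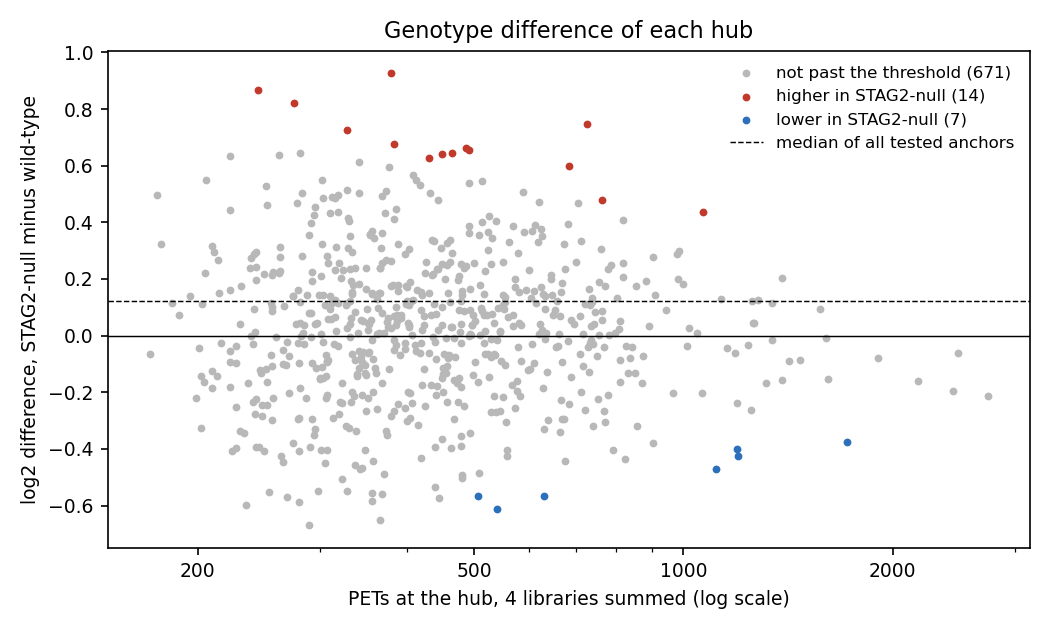
Log2 difference (STAG2-null minus wild-type, PETs scaled per chromosome) of each of the 692 hubs against its PETs summed over the 4 libraries, on a log axis. The 14 red hubs and 7 blue hubs passed the threshold, and the dashed line marks the median of all tested anchors at 0.12.

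Hubs that rose had between 10 and 20 loops and log2 differences from 0.44 to 0.93. The largest rise was at chr2:134251620-134260881, a hub of 14 loops with FLI1 and H3K27ac flags and no CTCF flag. Its normalised PETs were 22.3 and 33.4 in the null libraries and 14.7 and 14.7 in the wild-type libraries (27.9 ± 7.89 against 14.7 ± 0.00249). The groups did not overlap, the null libraries lay far apart, and all 14 partners had the higher value in the null libraries. The log2 difference was 0.93 ± 0.17 with an adjusted p of 0.000498 (edgeR's quasi-likelihood test), and without STAG2-null 2 it was 0.60 and did not pass (adjusted p 0.400). No partner was a hub, and the partners reached from 6.39 kb to 1231 kb. The most frequent loop, 8.85 kb long, had 18 and 46 PETs in the null libraries and 16 and 19 in the wild-type libraries.

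The hub at DAPK1, chr9:90109187-90118554, had the smallest adjusted p of all hubs, 5.34e-05 by edgeR's quasi-likelihood test. It had 19 loops and flags for H3K27ac and a promoter but not for CTCF. Its normalised PETs were 33.8 and 46.0 in the null libraries and 23.9 and 23.5 in the wild-type libraries, with no overlap, at a log2 difference of 0.75 ± 0.13. The call was lost with plain library totals (0.44, adjusted p 0.0904), TMM factors (0.32, adjusted p 0.275), window sparse pairs (0.40, adjusted p 0.354) and without STAG2-null 2 (0.51, adjusted p 0.158), all by the same edgeR test. Of its partners, 17 of 19 were higher in the null libraries. A neighbouring hub, chr9:90127800-90137251, rose by 0.64 ± 0.16, and the loop between them, 18.7 kb long, had 28, 32, 26 and 26 PETs in STAG2-null 1 and 2 and wild-type 1 and 2. Scaled per chromosome, that loop's log2 difference was 0.55 (adjusted p 0.613, same edgeR test). A further hub on that arm, chr9:91401008-91410175, rose by 0.48 ± 0.12. With plain totals, TMM factors and window sparse pairs these 2 hubs no longer passed, with log2 differences of 0.34, 0.22 and 0.30 at the neighbour and 0.17, 0.06 and 0.13 at the further hub.

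On chromosome 20, 3 hubs rose that were joined to each other. At chr20:52481256-52490719, with 11 loops, the normalised PETs were 24.0 and 24.0 in the null libraries and 11.2 and 14.9 in the wild-type libraries, a log2 difference of 0.87 ± 0.21 (adjusted p 0.0193, edgeR's quasi-likelihood test). The hub chr20:52527762-52538809 rose by 0.66 ± 0.15 and chr20:52204874-52217380 by 0.68 ± 0.17. In the last the null libraries were far apart, at 26.2 and 45.4 normalised PETs, and the first of them lay near the wild-type values of 21.0 and 23.6. Without STAG2-null 2 its log2 difference was 0.23 (adjusted p 0.879, same edgeR test). None of the 3 passed with plain totals, TMM factors or window sparse pairs. The loop of 275 kb from this hub to chr20:52481256-52490719 had 6 and 8 PETs in the null libraries and 2 and 3 in the wild-type libraries.

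Of the other hubs that rose, chr7:90717406-90722586, with 10 loops and flags for CTCF, FLI1 and H3K27ac, had 12.5 and 12.4 normalised PETs in the null libraries and 7.60 and 6.54 in the wild-type libraries. Its log2 difference was 0.82 ± 0.20. On chromosome 11, chr11:129255934-129262743 (11 loops) had 13.7 and 17.7 against 7.56 and 11.2, a log2 difference of 0.73 ± 0.18. Its neighbour chr11:129241099-129250734 rose by 0.60 ± 0.13, and the 13.4 kb loop that joins them, with 35 and 47 PETs against 25 and 30, made up 41.8% of the PETs of the first. The hub at AHDC1, chr1:27914776-27937136, had 18.0 and 15.6 against 10.5 and 11.0, a log2 difference of 0.64 ± 0.16, which was 0.37 with window sparse pairs and did not pass. The hub with the smallest rise, chr11:65263638-65279149, had 20 loops and a log2 difference of 0.44 ± 0.11. Its normalised PETs were 40.9 and 53.0 in the null libraries against 37.5 and 32.0. It did not pass with plain totals (0.37), TMM factors (0.25), or sparse pairs of the chromosome (0.49) or of windows (0.55). Without STAG2-null 2 the log2 difference was 0.24.

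By their medians, hubs that fell were broader and had more loops than those that rose. The median was 25 loops, 19543 bp and 1113 PETs, against 12.5 loops, 9458 bp and 457 PETs for those that rose. A larger number of PETs makes a smaller difference detectable, and their falls ran from -0.38 to -0.61. The largest fall was at chr11:69186002-69203661, with 19 loops and 16.3 and 15.8 normalised PETs in the null libraries against 25.5 and 23.7 in the wild-type libraries. The log2 difference was -0.61 ± 0.15 with an adjusted p of 0.0190 (edgeR's quasi-likelihood test), and 2 of 19 partners were higher in the null libraries. On chromosome 21, chr21:46365887-46381201, with 11 loops and a CTCF flag alone, had 97.3 and 100 against 146 and 147, a log2 difference of -0.57 ± 0.15. At each of these hubs the groups lay far apart compared with the spread within them. Both were chosen by a test on the same PETs, so this is a description.

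On chromosome 9, 4 hubs fell. The hub at QRFP, which encodes a neuropeptide, chr9:133759486-133779028, had 17 loops and 20.2 and 21.8 normalised PETs in the null libraries against 30.7 and 31.4, a log2 difference of -0.57 ± 0.14. Its neighbour chr9:133731713-133750767, with 25 loops and a CTCF flag, fell by 0.42 ± 0.10 on the log2 scale, from 58.99 and 55.5 to 41.0 and 44.4. The 28.0 kb loop between them had 33 and 39 PETs in the null libraries and 59 and 69 in the wild-type libraries and made up 31.7% of the PETs of the QRFP hub. Scaled per chromosome, that loop's log2 difference was -0.48 (adjusted p 0.503, edgeR's quasi-likelihood test). At RXRA, chr9:137203756-137246410, a hub of 31 loops, the null libraries had 47.3 and 29.7 normalised PETs and the wild-type libraries 53.0 and 54.1. The fall of 0.47 ± 0.11 on the log2 scale (adjusted p 0.0125, edgeR's quasi-likelihood test) was larger in STAG2-null 2 than in STAG2-null 1. The fourth hub, chr9:132152633-132180560, had 32 loops, 22 of them to other hubs, and 60.6 and 64.0 against 81.1 and 80.5. On chromosome 20 the hub at SIRPA, which encodes an inhibitory receptor that binds CD47, had 77.1 and 74.7 against 105 and 95.3. None of the 7 hubs that fell passed with sparse pairs of the chromosome or of windows. With window sparse pairs the log2 differences were -0.35 at QRFP, -0.20 at its neighbour, -0.27 at RXRA, -0.15 at the fourth chromosome 9 hub and -0.10 at SIRPA (adjusted p from 0.502 to 0.882, same edgeR test). With plain totals they were larger, at -0.87, -0.73, -0.77, -0.68 and -0.59. The falls on chromosomes 11 and 21 kept more of their size with window sparse pairs, at -0.51 and -0.42 (adjusted p 0.267 and 0.395, same edgeR test). With plain totals these were -0.68 and -0.73. Without STAG2-null 2 the RXRA hub was at -0.18 (adjusted p 0.758, same edgeR test).

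**Figure D4:**
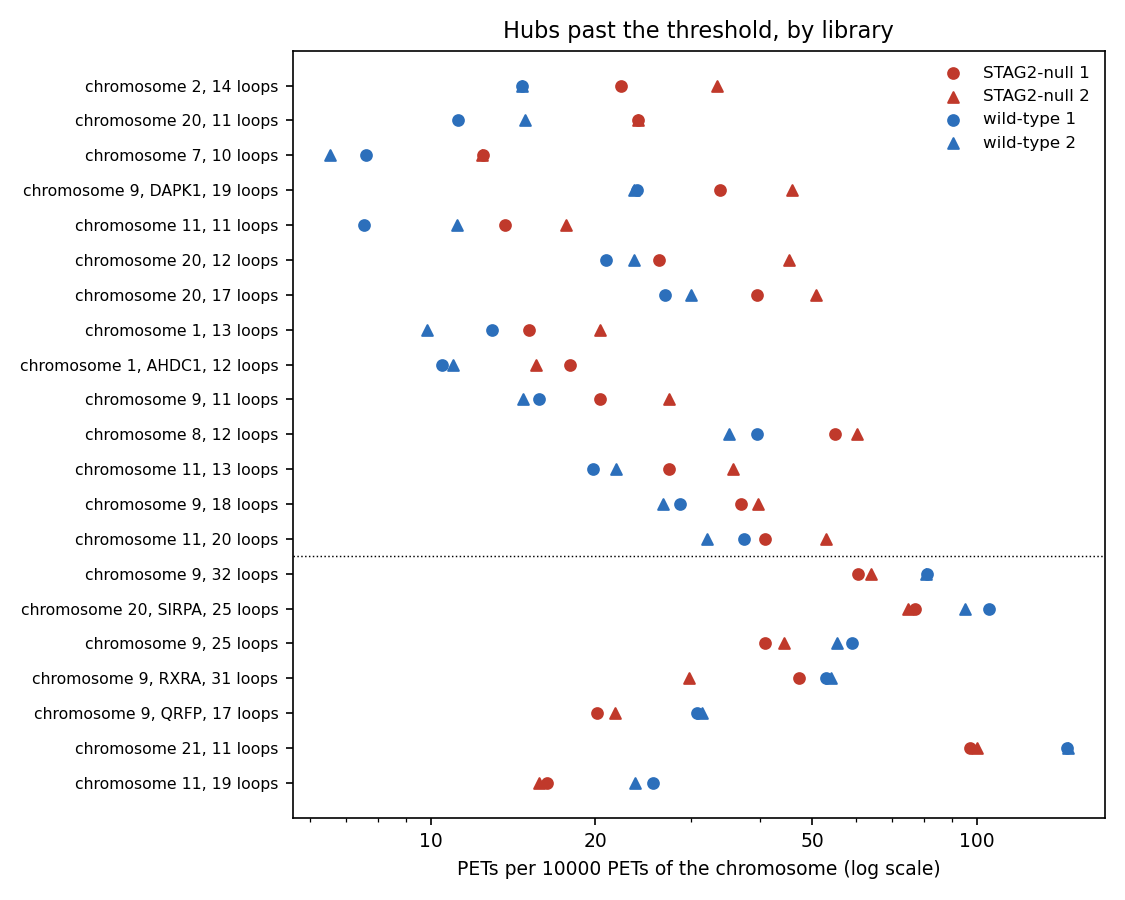
PETs per 10000 PETs of the chromosome (log axis) in each library at the 21 hubs past the threshold, ordered by log2 difference, with the 14 that rose above the dotted line and the 7 that fell below it. Red marks stand for STAG2-null and blue for wild-type libraries, circles for library 1 and triangles for library 2. Red and blue do not overlap at any of the 21 hubs, which were chosen by a test on the same PETs. Without that choice, 49.7% of all hubs and 40.8% of all tested anchors separate.

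The direction of change was shared by most partners of a called hub. Between 76.9% and 100% of the partners were higher in the null libraries at the 14 hubs that rose, and between 9.09% and 23.5% at the 7 that fell, against a median of 50% over all hubs. These shares come from the same PETs as the test and are a description. The 21 hubs lay in 15 clusters, and 9 of them were joined to another called hub by 6 loops. Flags exist only for hubs in the authors' table. Of the 8 hubs that rose and have flags, all 8 carried H3K27ac, 4 FLI1, 4 CTCF and 2 a promoter. Of the 6 that fell and have flags, 3 carried H3K27ac, 3 CTCF, 3 a promoter and none FLI1. Over all 242 hubs with flags the shares were 73.6% for H3K27ac, 23.6% for FLI1, 62.4% for CTCF and 37.6% for promoters, and no difference between rises and falls was tested.

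Differences on chromosome 9 followed position along the chromosome. Of the 16 hubs between 90 and 100 Mb, 15 were above 0, with a median of 0.34, and 3 passed the threshold as higher. Of the 112 hubs beyond 130 Mb, 29 were above 0, with a median of -0.10, and 4 passed as lower. Sparse anchor pairs, scaled in the same way, moved with them. In the 10 Mb window from 90 Mb they were 0.34 higher in the null libraries on the log2 scale, and in the window from 130 Mb 0.22 lower. Taken as a share of all PETs of a library, without scaling per chromosome, the log2 differences were 0.04 and -0.51. The 0.34 is therefore relative to the rest of the chromosome. For the 7 hubs that fell, the sparse pairs of the window were lower in the null libraries at all 7, from -0.10 to -0.30, and for the 14 that rose they were higher at 7. The 4 falls on chromosome 9 share 1 window. Among windows without a called hub, those with most hubs were lower too. They were at -0.06 on chromosome 12 from 50 Mb (25 hubs), -0.13 on chromosome 1 from 150 Mb (24 hubs) and -0.15 on chromosome 17 from 70 Mb (23 hubs). The share over all hubs was not counted, so falls and rises are not contrasted by these numbers. With each window scaled to its own sparse pairs, the chromosome 2 hub still passed the threshold (0.84, adjusted p 0.0375, edgeR's quasi-likelihood test). Both chromosome 11 hubs near 129 Mb passed too (0.74 and 0.87, adjusted p 0.0375 each, same edgeR test). They also passed with plain totals, at 0.53 and 0.66 (adjusted p 0.0272 and 0.0371, same edgeR test), and with sparse pairs of the chromosome. With TMM factors neither passed, at 0.41 and 0.54 (adjusted p 0.119 and 0.112, same edgeR test). Without STAG2-null 2 these chromosome 11 hubs were at 0.39 and 0.53, against 0.60 and 0.73 with all 4 libraries. Chromosome 9 took 7.83% and 7.23% of the PETs of the null libraries and 9.30% and 9.28% of those of the wild-type libraries. The scaling per chromosome removes this difference for the chromosome as a whole and leaves differences between its parts. After it, the value of 1 part of a chromosome is relative to the rest.

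Genes of the lists that were looked for lay at few hubs. Of 19 genes described as activated by EWS-FLI1, 5 were placed at an anchor, 2 of them at a hub, CAV1 and HES1. The hub at CAV1, the main protein of caveolae, chr7:116159015-116170396, had 24 loops and 30.8 and 36.0 normalised PETs in the null libraries against 26.2 and 24.3. Its log2 difference was 0.41 ± 0.12 with an adjusted p of 0.0924, and that of HES1, a transcriptional repressor in Notch signalling, was 0.64 ± 0.20 with an adjusted p of 0.115 (edgeR's quasi-likelihood test for both). The hub at HES1, chr3:193849348-193861135, had 10 loops and 25.1 and 32.8 against 19.9 and 17.4. Neither passed the threshold. Genes repressed by EWS-FLI1 (2 of 10 at an anchor), cohesin and CTCF genes (0 of 11), markers of Ewing sarcoma (1 of 7, NR0B1) and markers of other cell types (0 of 7) had none at a hub. Since gene names come only from differential loops, a gene not placed may still lie at a hub, and these lists do not check the identity of the cells.

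Of the 15 genes of the HOX, MEIS and neural crest list, 6 were placed at an anchor. HOXD10, HOXD11 and HOXB13 lay at 2 hubs, and MEIS1, MSX1 and DLX5 at anchors with fewer loops. The hub over HOXD3, HOXD8, HOXD9, HOXD10 and HOXD11, chr2:176967436-177013686, was 46251 bp wide and had 26 loops, 21 of them to higher coordinates. Its median partner distance was 515 kb, and its most frequent loop spanned 527 kb with 48, 64, 47 and 51 PETs in STAG2-null 1 and 2 and wild-type 1 and 2. Normalised PETs were 69.0 and 94.8 in the null libraries and 73.2 and 69.4 in the wild-type libraries, so the groups overlapped and STAG2-null 2 was the highest. The hub at HOXB13 and PRAC1, chr17:46794090-46808136, had 19 loops and a log2 difference of 0.26 ± 0.14. Of 8 housekeeping genes, 3 were placed at an anchor, ACTB, TUBB and TUBB4B, for beta-actin and beta-tubulins, and each of these lay at a hub. At ACTB the log2 difference was 0.21 ± 0.13 and at TUBB 0.23 ± 0.18, and none of the 3 passed the threshold.

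Single loops gave fewer calls than whole hubs. Of the 8358 hub loops, 4876 had at least 20 PETs over the 4 libraries and were tested. Of these, 4 were higher and 0 were lower in the null libraries (0.082%, where 0.0843% of all tested loops passed, 0.0759% as higher and 0.00843% as lower) by edgeR's quasi-likelihood test, with 227 and 174 at an unadjusted p under 0.05. DESeq2 called 0 in either direction, with 24 and 13 unadjusted, and leaving out any 1 library left 0 by the edgeR test, with 114 to 240 higher and 133 to 177 lower unadjusted. The loop of 128 kb between the hub at KIRREL, an adhesion protein of the immunoglobulin family, chr1:157950636-157971069, and the hub chr1:158082311-158096124 had 54 and 91 PETs in the null libraries and 34 and 38 in the wild-type libraries. Its log2 difference was 0.97 ± 0.19 with an adjusted p of 0.00510 (edgeR's quasi-likelihood test). The DAPK1 hub's loop of 10.2 kb to chr9:90120841-90127215 had 38 and 41 PETs against 19 and 26, a log2 difference of 1.16 ± 0.28. On chromosome 7 a loop of 11.6 kb from the hub chr7:99681986-99693887 had 82 and 79 against 36 and 42. On chromosome 19 a loop of 13.1 kb from the hub chr19:12774818-12784467 had 13 and 9 PETs against 1 and 0, a ratio of 19.1 of the summed PETs scaled by chromosome (95% exact binomial interval 3.09 to 790, counting error only).

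Complete loss or gain of a hub loop was rare. Of the 8358 hub loops, 7897 (94.5%) had a PET in all 4 libraries, 8 had none in either null library and 4 had none in either wild-type library. Of the 14322 loops with no hub end, 94.1% had a PET in all 4. Among these, 6 (0.042%) had none in either null library and 12 (0.084%) none in either wild-type library. The shares of hub loops were 0.096% and 0.048%. The table lists loops found in the libraries together, so all these shares depend on how loops entered it. The most frequent hub loop, between the widest hub and chr12:125031777-125055614, had 87 and 86 PETs in the null libraries and 100 and 110 in the wild-type libraries, a log2 difference of -0.25 ± 0.12. The next by PETs joined the widest hub to chr12:124928285-124955849, with 74 and 94 against 88 and 81, and the third joined chr12:125213245-125232644 to chr12:125233800-125252749, with 80 and 72 against 93 and 84, a log2 difference of -0.20 ± 0.14. None of the 3 passed the threshold.

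Hub loops took 43.2% and 41.3% of the high-confidence-loop PETs in the null libraries and 45.7% and 45.3% in the wild-type libraries. The means were 42.2% ± 1.39 and 45.5% ± 0.316 (SD, n = 2 each), and the groups did not overlap. An exact two-sided permutation test gave p = 0.333, the smallest that 2 libraries against 2 allow. Without chromosome 9 the means were 39.2% and 41.4%, again without overlap. As a share of all PETs, hub loops took 9.38% ± 0.0578 in the null libraries and 9.62% ± 0.304 in the wild-type libraries, and here the groups overlapped.

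By distance, hub loops of 5 to 20 kb held 31.7% of the hub-loop PETs in the null libraries and 29.1% in the wild-type libraries. Hub loops of 50 to 100 kb held 16.1% against 17.6%, and those over 500 kb 1.54% against 1.24%. In all 6 distance classes the libraries separated by genotype, lower in the null libraries between 20 and 200 kb and higher below and above, with the same smallest p of 0.333 by the exact permutation test in each. The classes of a library add up to its whole, so they are not independent. Loops with no hub end of 5 to 20 kb held 69.6% against 67.0% of their PETs, and those of 50 to 100 kb 6.05% against 7.16%. In every class, loops with no hub end went in the same direction as hub loops. Their libraries overlapped only at 200 to 500 kb (3.54% against 3.34%), so the pattern is not particular to hubs. Among the tested hub loops the median log2 difference was 0.12 at 5 to 20 kb, -0.12 at 50 to 100 kb and 0.38 over 500 kb, close to the medians of 0.19, -0.14 and 0.47 over all tested loops of these lengths.

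**Figure D5:**
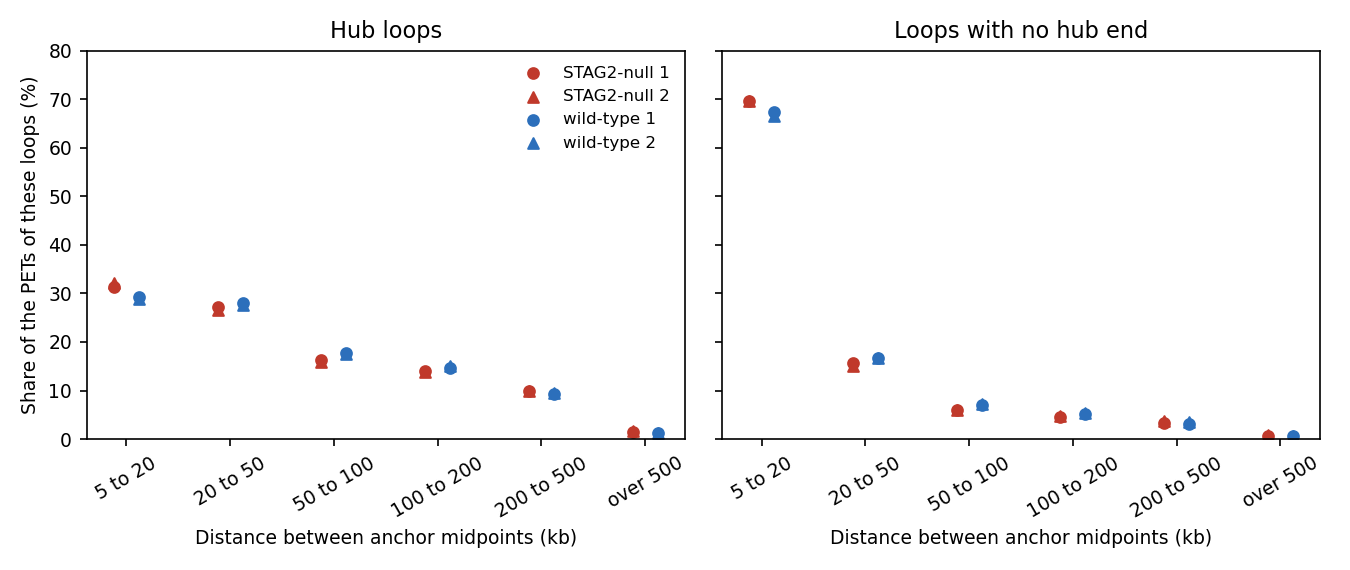
Share of the PETs of hub loops (left) and of loops with no hub end (right), in percent, by distance between anchor midpoints in kb, for each library. Red stands for STAG2-null and blue for wild-type, circles for library 1 and triangles for library 2; hub loops of 5 to 20 kb hold 31.7% of hub-loop PETs in the null and 29.1% in the wild-type libraries.

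The authors' deposited table of differential loops holds 650 loops, of which 275 (42.3%) are hub loops. Hub loops are 36.9% of all high-confidence loops and hold 43.8% of their PETs. Of the 275, the authors' table gives 96 as stronger in the mutant and 179 as stronger in the wild type, where the whole table has 350 and 300. Whether that table was scaled per chromosome, as was done here, was not checked. On chromosome 9 lie 3 of the 96 and 90 of the 179. Its log2 values are positive where the wild type is stronger, the opposite of the sign used here.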

How the data were processed

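SMC1 HiChIP of A673 cells was deposited as a count of PETs and a p-value per anchor pair for each of 4 libraries, as a table of 22680 high-confidence loops, and as a table of 650 differential loops with a log2 fold change, per the file headers. Per the submitters' processing notes, HiC-Pro and hg19 were used; no version is listed. The settings of the loop caller are not given in the sources here. Every high-confidence loop had a deposited FDR under 0.01 and at least 8 PETs in all, and its deposited counts equalled those of the per-library files in all 22680 rows. The deposited p-values were not used further.

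PETs of high-confidence loops were summed per anchor, with a loop between hubs counted at both. They were tested with edgeR 4.0.16 (R 4.3.3) on genotype, with each library's PETs on the chromosome, over all pairs, as offset and with a minimum of 20 PETs. Benjamini-Hochberg adjustment ran over all tested anchors or loops. Errors of log2 differences are standard errors of the fit. Alternatives were DESeq2 1.42.0, other scalings, filters, hub minimums, pair sets, a replicate block and leaving out libraries. Sequences came from RefSeq (GRCh38.p14), where 93 of 105 hub genes matched by current and 8 by older symbol and 73 had a promoter.

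Hubs named are the 8 with most loops (eighth place, shared by 3 hubs, went to the one with most PETs), the 5 largest rises and falls past the threshold, the extremes of width and partner distance and those with a listed gene. Loops named are the 3 with most PETs and those past the threshold. Other hubs past the threshold, 1-sided hubs, clusters, and the loops between named hubs or most frequent at one were chosen after their values were seen. The members, lists and tests were chosen with earlier results of these data known. Intervals cover counting error only.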

Additional observations from a re-analysis of the deposited data

How the results depend on the processing

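The counts of hubs past the threshold moved. Against 14 higher and 7 lower hubs, plain library totals gave 23 and 39 (median over hubs -0.0095), TMM factors 75 lower (median -0.13), sparse pairs of the chromosome 0 lower (40 at an unadjusted p under 0.05), and sparse pairs of 10 Mb windows 3 and 0 (89 and 14 unadjusted, median 0.13). DESeq2 gave 0 and 0 (28 and 20 unadjusted, against 94 and 67 by edgeR). Summing all anchor pairs gave 18 lower, loops of at least 20 kb 5 and 2 (median -0.026), and loops whose other end is not a hub 7 and 1. Hubs of 8 or more loops gave 22 higher, and hubs of 15 or more gave 4. Leaving out each library gave from 0 to 38 higher and from 0 to 19 lower, with a single library left in 1 genotype. No called hub changed sign under the scalings, DESeq2, the pair sets or the block. Leaving out a library could not change it, since the libraries separate at all 21, and the filters and loop minimums leave a hub's PETs as they are. The cause was not tested.

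The replicate numbers did not pair the libraries: deviations of same-numbered libraries from their group means correlated at 0.0117 over anchors and -0.0140 over hubs. With the replicate number as a block, 6 hubs were higher and 1 lower.

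For hub loops, 4 higher and 0 lower became 2 lower with plain totals, 9 lower with TMM, 1 higher with sparse pairs of the chromosome, and 0 higher with sparse pairs of windows (250 unadjusted), DESeq2 (24) and no filter (294). Leaving out each library gave 0 higher. The number of hubs was 1101 at 8 or more loops, 245 at 15 or more and 137 after merging anchors within 5 kb, with median partner distances of 51.5, 80.4 and 128 kb.

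Signs reversed only at hubs and a loop not past the threshold. The hub chr17-7473526 became -0.070 with plain totals, -0.18 with TMM, -0.0082 with all pairs and -0.056 with loops of at least 20 kb, and ranged from -0.088 (without wild-type 2) to 0.11 (without wild-type 1) on leaving out a library. The SMAD7 hub (chr18-46439186) became 0.036 with sparse pairs of the chromosome and 0.063 with those of windows, and ranged from -0.053 (without STAG2-null 1) to 0.039 (without STAG2-null 2). The narrowest hub (chr1-16892096) became -0.075 with window pairs and ranged from -0.041 (without wild-type 2) to 0.24 (without wild-type 1). The HOXD hub (chr2-176967436) became -0.037 with TMM and ranged from -0.046 (without STAG2-null 2) to 0.41 (without STAG2-null 1), and the TUBB hub (chr6-30686899) -0.18 with loops of at least 20 kb. With window pairs, the chromosome 9 hubs became 0.14 (chr9-131928426), 0.0059 (chr9-132073682), 0.027 (chr9-132240582), 0.16 (chr9-132362222) and 0.039 (chr9-140109879), and chr9-132362222 was 0.33 over partners that are not hubs. The loop chr12-124928285-124968696 became -0.059 with TMM and ranged from -0.14 (without STAG2-null 2 or without wild-type 2) to 0.17 (without wild-type 1). Of 8358 hub loops, 4876 reached 20 PETs.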
